A study of Mus musculus with 186 samples.

Results

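The comparison set 5 striatal libraries of Akap11 -/- mice (KO) against 5 of wild-type mice (WT), all taken at 4 weeks of age, over every gene of the deposited count table. These 10 of 186 libraries were chosen by the region, age and genotype in their labels. The series sampled 6 brain regions at 4 and 12 weeks in WT, Akap11 +/- (HET) and KO mice, and the 5 HET striatal libraries of 4 weeks entered the same fit, where they helped to estimate the spread. The tissue was cut from frozen brains, and each library holds the polyadenylated RNA of a whole piece of striatum. The labels name neither the way the Akap11 allele was made nor the strain or sex of the mice. The labels number the samples without naming animals, so p-values measure the spread between samples, part of which may be technical. Libraries are named by genotype and label number, and values by library are given in the order WT 42, 92, 142, 913 and 914, then KO 12, 51, 161, 163 and 932.

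AKAP11 is an A-kinase anchoring protein: it binds the regulatory subunits of protein kinase A (PKA), the kinase switched on by cyclic AMP (cAMP), and also glycogen synthase kinase 3 and protein phosphatase 1. The striatum consists mostly of GABAergic projection neurons of the direct pathway (D1 dopamine receptor, substance P, dynorphin) and the indirect pathway (D2 receptor, adenosine receptor Adora2a, enkephalin). In these neurons dopamine and adenosine act through cAMP and PKA, and PKA in turn acts on transcription through CREB and other factors.

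The 10 libraries held 30589285 to 71225358 counts, and 15425 of 28338 gene symbols passed the filter on low counts. All 10 expressed the defining genes of striatal projection neurons, whose 22 listed genes summed to 13600 to 39500 CPM (counts scaled to a common library total with TMM factors). They did not carry the same amount of cortical RNA. Emx1, a transcription factor of the dorsal forebrain, stood at 0.0856, 2.00, 0.0275, 0.315 and 0.0292 CPM in WT and at 0, 4.81, 7, 3.56 and 0.128 CPM in KO. Tbr1, a factor of deep-layer cortical neurons, stood at 0.228, 46.4, 0.138, 2.42 and 0.467 CPM in WT and at 0.131, 70.4, 110, 52.8 and 0.204 CPM in KO. Neurod6, of cortical excitatory neurons, stood at 0.171, 18.8, 0.0551, 1.06 and 0.292 CPM in WT and at 0.0328, 27.7, 42.7, 18.2 and 0 CPM in KO. The same 4 libraries, KO 51, KO 161, KO 163 and WT 92, were high in all 3 genes, while KO 12 and KO 932 lay within or below the range of the other WT libraries.

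A cortical score was taken as the mean log2(CPM + 1) of the 14 genes of cortical excitatory neurons, of 15 listed, that passed the filter. It was 4.31 to 5.26 in those 4 libraries and 1.31 to 1.96 in the other 6. Set against cortical libraries of the same age, the excess corresponded to an estimated cortical share of 28.2% of the RNA in KO 51, 42.2% in KO 161, 16.1% in KO 163 and 17.2% in WT 92, and to at most 0.936% in the others. The projection neuron genes moved the other way in KO: they summed to 27700 to 39500 CPM in the 2 cortex-low KO libraries, 13600 to 19900 CPM in the 3 cortex-high ones and 23100 to 39500 CPM in WT. In bulk tissue, fewer cells of a type and less RNA per cell cannot be told apart. Cortical RNA therefore went with genotype in part (3 of 5 KO libraries, 1 of 5 WT), and a second fit took the cortical score as a covariate and a further one left out the 4 libraries (2 KO against 4 WT). Of the 86 called genes picked by the naming rule, 18 lost their call with the covariate and 40 without the 4 libraries, where fewer samples were left. The files held a second split: KO 12, WT 914 and WT 92 had 5.17% to 5.43% whole-number values and the other 7 libraries 17.4% to 21.2%. Whether these 3 were quantified differently was not tested. With this split as a term 646 genes were called, and 6 of the 86 calls were lost. KO 12 and WT 914 were also the libraries whose omission moved the count of calls most, to 1141 and 263. No library stood apart in sex-linked genes: Y-linked genes summed to 98.2 to 127 CPM and Xist stood at 0.0615 CPM or less in each of the 10.

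**Figure D1:**
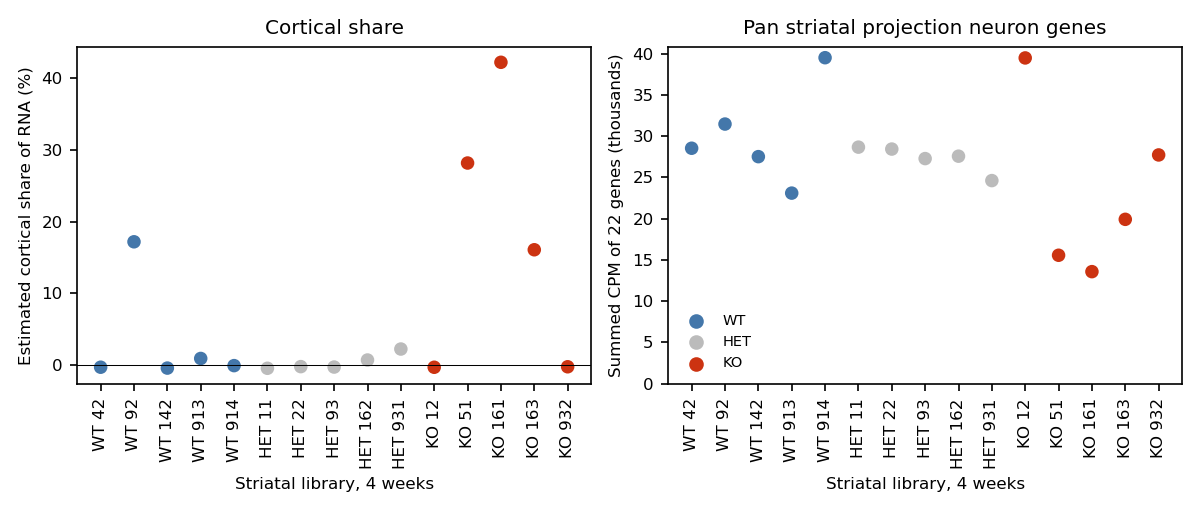
Left, estimated cortical share of the RNA (%) in each 4-week striatal library; right, summed CPM (axis in units of 1000) of 22 pan striatal projection neuron genes in the same libraries, coloured by genotype. KO 51, KO 161, KO 163 and WT 92 lie at 16.1% to 42.2% cortical share, and the 3 KO libraries among them have the lowest projection neuron sums.

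Akap11 itself (chr14:78492246-78536808, minus strand, GRCm38) stood at 371, 351, 379, 359 and 404 CPM in WT and at 19.7, 19.9, 15.7, 19.7 and 19.8 CPM in KO. Every KO library matched its label, and the KO mean was 5.08% of the WT mean. The log2 fold change was -4.30 ± 0.08 (SE, n = 5 and 5; edgeR's quasi-likelihood test, adjusted p = 1.02e-14). HET libraries lay between, at 183 to 206 CPM. The counts are per gene and do not show which exons the remaining KO reads come from.

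Beside Akap11, the knockout striatum at 4 weeks had lower levels of the transcription factor Egr2, the serotonin receptor Htr4, the growth factor Fgf3 and the actin-binding protein Tagln, and higher levels of Nrip3, the G protein subunit Gng4 and the Eph receptor Epha10. In all, 516 of 15425 genes (3.35%) passed edgeR's quasi-likelihood test at a Benjamini-Hochberg adjusted p under 0.05: 246 were higher (1.59%) and 270 lower (1.75%) in KO. In 371 of the 516 the 5 KO and 5 WT libraries did not overlap, against 560 of all genes tested (3.63%). The count moved by over 1.5 times with single libraries: omitting WT 914 gave 263 calls, WT 142 gave 296, WT 42 gave 300, KO 51 gave 312, KO 161 gave 320 and KO 12 gave 1141. The count of higher genes was 431 without WT 92. Fitted on WT and KO libraries only it was 174, and DESeq2 gave 971.

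With the cortical score as a covariate 522 genes passed (3.38%), 267 higher (1.73%) and 255 lower (1.65%), and 375 genes (2.43%), 174 higher (1.13%) and 201 lower (1.30%), passed in both fits with the same sign. Without the 4 cortex-high libraries 417 of 15750 genes passed (2.65%), 209 higher (1.33%) and 208 lower (1.32%). All 516 genes kept their sign with the covariate and without the 4 libraries. Of the 375, 202 also passed without the 4 libraries, and 110 of these (45 higher, 65 lower) passed with the same sign in the 12-week striatum as well. The median size of the log2 change was 0.54 over the 516 genes, 0.59 over the 375 and 0.88 over the 110.

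The rises and the falls were each set against the cortical share. Genes at least 2-fold higher in 12-week WT cortex than in 12-week WT striatum made up 91 of the 246 higher genes (37.0%) and 8.93% of all genes tested. For these 91 the median log2 change was 0.72. Mixing in the estimated cortical shares would alone give a median of 0.30. The mixing value averages log2(CPM + 0.5) over libraries, unlike the fit, so it is not an exact part of the fitted change. The median log2 change was 0.54 with the covariate, 0.47 without the 4 libraries and 0.28 in the 12-week libraries. Cortical scores there spanned 2.46 to 2.90. They rest on the 7 listed genes that passed the filter at 12 weeks, against 14 at 4 weeks. The scores of the 2 ages therefore cannot be compared. The covariate kept 61 of the 91 calls. Over all 1378 cortex-enriched genes tested, called or not, the median went from 0.43 to 0.05 with the covariate and to -0.12 without the 4 libraries. Mixing alone would give a median of 0.29 over these 1378 genes.

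Among the 270 lower genes, 94 (34.8%) were at least 2-fold higher in striatum than in cortex, beside 6.83% of all genes tested. Their median log2 change was -0.83, and mixing alone would give -0.16. It was -0.74 with the covariate, -0.62 without the 4 libraries and -0.65 at 12 weeks, and 77 of the 94 calls were kept with the covariate. Over all 1054 striatum-enriched genes the median was -0.19, then -0.09 with the covariate and -0.02 without the 4 libraries. The value from mixing alone was at least 50% of the fitted change in 34 of the 246 higher genes, 31 of them cortex-enriched. It was so in 2 of the 270 lower genes. These ratios set values of 2 unlike scales side by side.

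**Figure D2:**
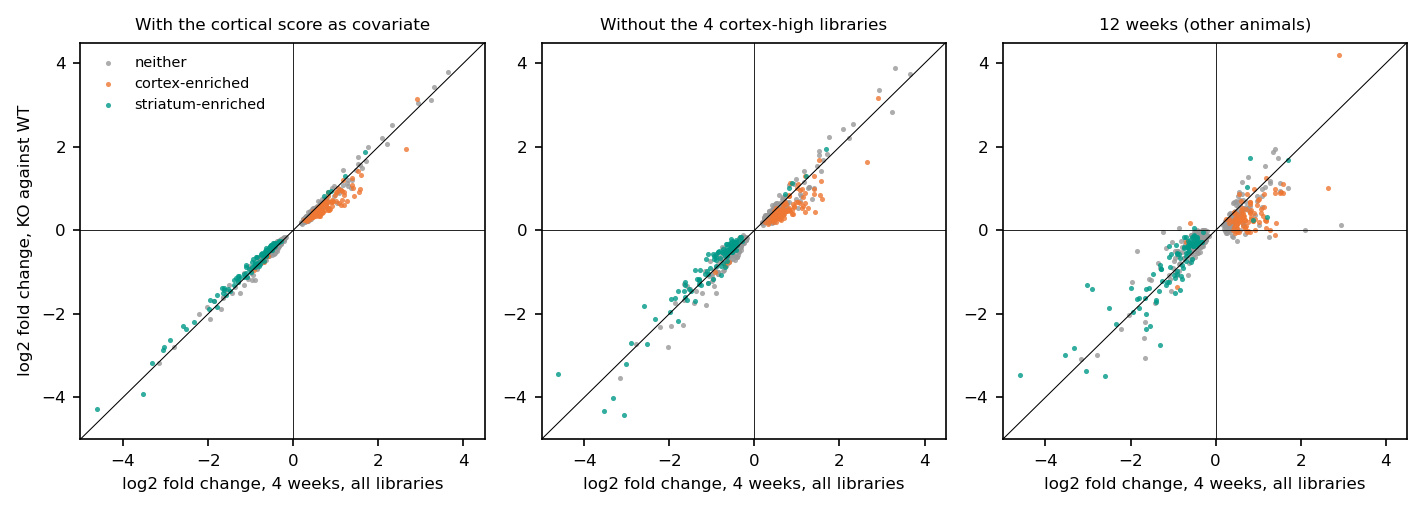
log2 fold change (KO against WT) of the called genes at 4 weeks with all libraries (x axis) against the same genes with the cortical score as covariate, without the 4 cortex-high libraries and in 12-week libraries (y axes); Akap11 is left out. Cortex-enriched rises (orange) fall below the diagonal, with medians of 0.72, 0.54, 0.47 and 0.28 in the 4 estimates, and striatum-enriched falls (green) lie nearer to it.

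After Akap11, Egr2 had the largest fall among the genes named by rule. It is a zinc-finger immediate early transcription factor (chr10:67535475-67542188, plus strand). Its level was 20.6, 34.7, 28.1, 67.4 and 51.1 CPM in WT and 0.918, 4.47, 4.01, 4.83 and 3.07 CPM in KO. The highest KO library lay well below the lowest WT library, the log2 fold change was -3.53 ± 0.39 (edgeR's quasi-likelihood test, adjusted p = 8.54e-05), and mixing alone would give -0.12. The change was -3.91 with the covariate and -2.99 at 12 weeks.

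Htr4, a serotonin receptor that couples to Gs and raises cAMP, stood at 5.16, 2.92, 4.92, 4.28 and 3.85 CPM in WT and at 0.557, 0.527, 0.521, 0.399 and 0.818 CPM in KO. The groups did not overlap, and cortex-low and cortex-high KO libraries lay together; the log2 fold change was -2.90 ± 0.26 (edgeR's quasi-likelihood test, adjusted p = 1.26e-05). Fgf3, a secreted fibroblast growth factor (chr7:144838083-144844436, plus strand), stood at 8.38, 4.12, 6.61, 5.20 and 3.74 CPM in WT and at 0.951, 1.02, 0.547, 0.573 and 0.384 CPM in KO. As the rule required, every KO library was below every WT library, with a log2 fold change of -3.03 ± 0.38 (edgeR's quasi-likelihood test, adjusted p = 0.000288). With the covariate the changes were -2.62 for Htr4 and -2.80 for Fgf3, and at 12 weeks -1.40 and -1.30.

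Tagln encodes transgelin, an actin-binding protein best known from smooth muscle (chr9:45929619-45936058, minus strand). It stood at 15, 9.16, 12.5, 12.6 and 13.9 CPM in WT and at 2.06, 2.20, 1.93, 2.81 and 1.99 CPM in KO, without overlap, and its log2 fold change was -2.51 ± 0.20 (edgeR's quasi-likelihood test, adjusted p = 5.7e-06). The other 10 mural and smooth muscle genes tested did not pass, Acta2 standing at -0.89 ± 0.49 and Myh11 at -0.51 ± 0.45 on the log2 scale. With the covariate its change was -2.37. The exons of Tagln overlap those of Pcsk7 on the other strand. The library kit keeps strand, but the sources give no strand setting for the counting. The value of Tagln is therefore less certain, as for all 23 of the 89 named genes with overlapping exons, Epha10 among them.

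The other falls named by rule were of 4 genes. Pipox, a peroxisomal oxidase of the pipecolic acid route (chr11:77880615-77894096), fell from 4.91 ± 1.07 to 1.24 ± 0.161 CPM (mean ± SD, n = 5 and 5). Il17rc, a subunit of the interleukin 17 receptor (chr6:113471427-113483140), fell from 9.52 ± 1.38 to 2.63 ± 0.597 CPM. Serpinb1b, an intracellular serine protease inhibitor, fell from 2.27 ± 0.285 to 0.727 ± 0.249 CPM. Dkk2, a secreted modulator of Wnt receptors (chr3:132085292-132180304), fell from 4.82 ± 1.38 to 1.55 ± 0.549 CPM. The rule required no overlap and a pass with the covariate. All 4 also passed without the cortex-high libraries and at 12 weeks, with log2 fold changes of -1.39, -1.65, -1.41 and -1.99 there.

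Nrip3, a gene named for an interaction with nuclear receptors (chr7:109758055-109782025, minus strand), had the largest rise of those named by rule. It stood at 27.9, 39.8, 26.3, 19.5 and 20.5 CPM in WT and at 79.9, 85.5, 92.4, 56.1 and 72.1 CPM in KO. The cortex-low libraries KO 12 and KO 932 were as high as the others, and WT 92 was the highest WT library. The log2 fold change was 1.52 ± 0.17 (edgeR's quasi-likelihood test, adjusted p = 0.000113), against 0.46 from mixing alone, and it was 1.69 without the 4 cortex-high libraries and 0.90 at 12 weeks.

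Epha10, a member of the Eph receptor family without kinase activity (chr4:124880899-124917800, plus strand), stood at 21.0, 20, 16.3, 17.2 and 18.6 CPM in WT and at 42.1, 49.2, 35.4, 35.9 and 48.1 CPM in KO. The 2 cortex-low KO libraries were among the 3 highest, and the log2 fold change was 1.18 ± 0.11 (edgeR's quasi-likelihood test, adjusted p = 1.76e-05), with 1.21 with the covariate and 1.26 at 12 weeks. Tunar, a gene of neural cells annotated as protein-coding (chr12:105333870-105383932), rose from 5.24 ± 1.40 to 12.7 ± 2.27 CPM. Its log2 change was 1.28 ± 0.16, against 0.04 from mixing alone, and 1.20 with the covariate.

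Lor, Lancl3 and Npnt completed the rises. Lor, which encodes the skin barrier protein loricrin, rose by 1.09 ± 0.17 and Lancl3 by 1.08 ± 0.17 on the log2 scale, but without the cortex-high libraries their adjusted p was 0.0649 and 0.0589 (edgeR's quasi-likelihood test). Npnt, an extracellular matrix ligand of integrins, rose from 8.33 ± 0.831 to 17.5 ± 3.63 CPM. Its log2 change of 1.06 compares with 0.55 from mixing alone, and was 0.97 without the 4 libraries. At 12 weeks these 3 genes did not pass, at 0.83, 0.99 and 0.52.

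**Figure D3:**
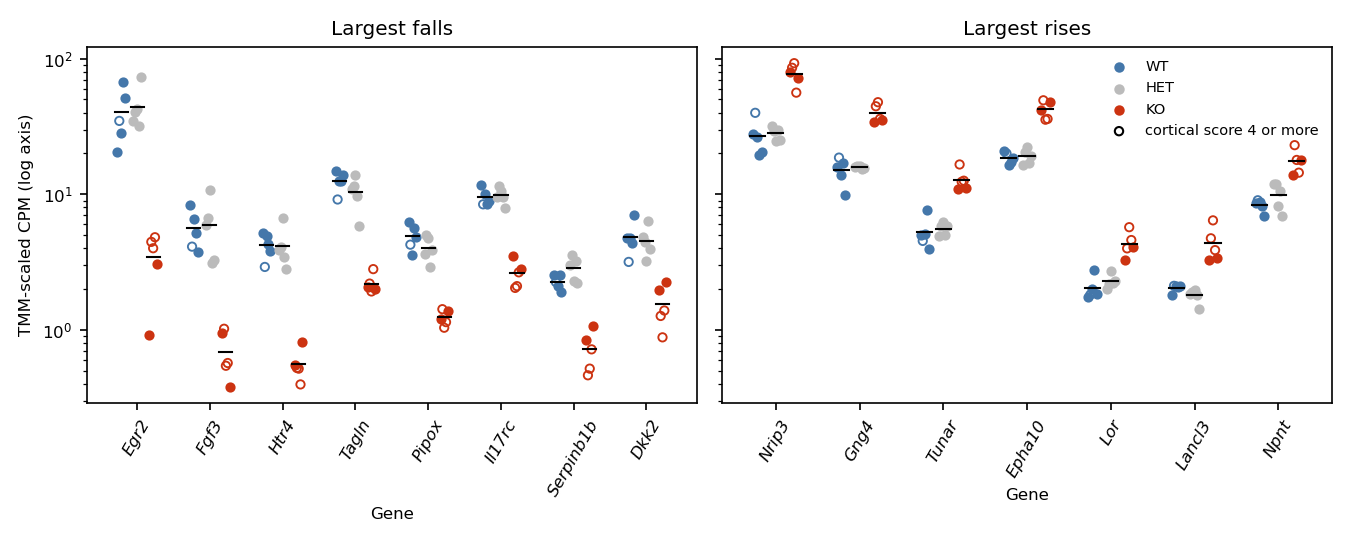
TMM-scaled CPM (log axis) of the 8 largest falls (left) and 7 of the largest rises (right) named by rule, by library; black bars are group means and open circles are libraries with a cortical score of 4 or more. The rule took only genes in which KO and WT do not overlap, so their separation was fixed by the choice. The HET points lie near WT.

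The immediate early genes, which neurons switch on within minutes of synaptic activity, did not share a direction across the fits. Of 25 tested, 1 was higher (Crem) and 2 were lower (Egr1, Egr2), and the median log2 change was 0.00, as over all genes (0.00). The median was -0.29 with the covariate (9 of 25 above 0), -0.26 without the 4 libraries (7 of 25) and 0.36 at 12 weeks (18 of 25). Egr1 stood at 434, 955, 559, 820 and 1312 CPM in WT and at 512, 362, 347, 476 and 503 CPM in KO. The ranges overlapped because WT 42 lay below 3 KO libraries. Its log2 fold change was -0.89 ± 0.23 (edgeR's quasi-likelihood test, adjusted p = 0.0463), but -0.87 with an adjusted p of 0.0630 with the covariate, and the call was lost in 7 of 10 fits that left out a library (WT 913, 914 or 92, KO 932, 51, 161 or 163; largest adjusted p = 0.125).

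The other EGR factors and the Fos and Nr4a genes varied widely within the groups. Egr3 stood at -0.60 ± 0.18 on the log2 scale, Egr4 at -0.67 ± 0.35, Junb at -0.49 ± 0.24 and Nr4a1 at -0.36 ± 0.42, none past the test. Fos, the usual marker of recent activity, stood at 23.8 ± 12.9 CPM in WT and 18.9 ± 7.63 CPM in KO, and Npas4, induced by calcium entry, at 51.7 ± 35.4 and 50.9 ± 38.2 CPM. After Egr2 the lowest log2 changes of the list were those of Egr1 and Egr4, and differences between genes were not tested.

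Crem, a cAMP-responsive gene that encodes activators and the inducible repressor ICER, stood at 9.70, 8.96, 9.06, 9.19 and 8.29 CPM in WT and at 14.0, 10.9, 12.1, 12.1 and 13.9 CPM in KO. The 2 highest libraries were the cortex-low KO 12 and KO 932, and no KO library overlapped WT. The log2 fold change was 0.48 ± 0.09 (edgeR's quasi-likelihood test, adjusted p = 0.00637), and 0.54 with the covariate. Among the 14 CREB and CRTC genes Crem was the only one higher, and Crebbp, the CREB-binding acetyltransferase, was lower, from 106 ± 3.18 to 85.3 ± 2.66 CPM. At 12 weeks none of the 14 passed. Crem stood there at 8.76 to 13.7 CPM in WT and 12.7 to 23.6 CPM in KO. Crebbp stood at 60.5 to 73.5 CPM in WT and 64.6 to 76.8 CPM in KO.

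Of 24 effectors induced by activity, Pcsk1 was higher and Homer1, Inhba and Baz1a were lower. Pcsk1, the convertase that processes neuropeptide precursors, stood at 8.56, 13.3, 8.43, 8.11 and 11.2 CPM in WT and at 18.9, 23.3, 20.1, 19.2 and 19.9 CPM in KO. Cortex-low and cortex-high KO libraries were alike, and the log2 fold change was 1.03 ± 0.20 (edgeR's quasi-likelihood test, adjusted p = 0.009), and 0.93 with the covariate. Homer1, a postsynaptic scaffold whose short form is induced by activity, stood at 282, 292, 292, 234 and 354 CPM in WT and at 234, 156, 124, 160 and 198 CPM in KO. KO 12 lay at the level of the lowest WT library, WT 913, and the log2 fold change of -0.74 ± 0.15 (edgeR's quasi-likelihood test, adjusted p = 0.0126) was -0.43 with an adjusted p of 0.18 without the 4 cortex-high libraries. Arc, a regulator of AMPA receptor uptake, stood at -0.69 ± 0.30 and did not pass. Baz1a, a subunit of chromatin remodelling complexes, fell from 10.8 ± 1.71 to 4.40 ± 0.824 CPM and passed with the covariate, without the 4 libraries and at 12 weeks.

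The windows before the start sites of 3 of these genes are shown because they carry the classical motifs of this group, and because Egr2 fell while Pcsk1 rose. Egr2 and Homer1 have more than 1 annotated start, and the windows shown precede a start that lies inside the full gene span in GENCODE. The sequences are from RefSeq (GRCm38.p6, plus strand, up to 250 bases before the start): Egr2 at chr10:67537619-67537868, Homer1 at chr13:93303507-93303756 and Pcsk1 at chr13:75089607-75089825. Capitals mark the half-site TGACG of the cAMP response element on either strand, the full element TGACGTCA, which contains the half-site on both strands, and the CArG box of serum response factor.
Egr2: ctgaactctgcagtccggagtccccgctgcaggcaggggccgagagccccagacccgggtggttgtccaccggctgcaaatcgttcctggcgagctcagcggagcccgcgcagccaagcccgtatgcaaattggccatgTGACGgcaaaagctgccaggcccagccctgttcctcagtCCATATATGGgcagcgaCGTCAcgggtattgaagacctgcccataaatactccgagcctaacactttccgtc
Homer1: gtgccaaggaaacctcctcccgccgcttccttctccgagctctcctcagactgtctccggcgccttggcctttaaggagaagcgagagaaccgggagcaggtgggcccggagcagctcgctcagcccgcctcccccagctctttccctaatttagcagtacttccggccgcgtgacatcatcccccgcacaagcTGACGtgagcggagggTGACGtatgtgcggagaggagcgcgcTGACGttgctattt
Pcsk1: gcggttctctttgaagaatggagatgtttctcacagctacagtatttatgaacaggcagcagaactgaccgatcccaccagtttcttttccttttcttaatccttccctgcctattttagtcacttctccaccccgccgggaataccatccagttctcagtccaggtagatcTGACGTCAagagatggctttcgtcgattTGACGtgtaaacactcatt
The Egr2 window held 1 CArG box and 2 half-sites, the Homer1 window 3 half-sites, and the Pcsk1 window 1 full element and a further half-site. Windows without a motif, and for Egr2 without a half-site, were passed over. That the windows shown hold motifs was thus fixed by the choice and cannot be read against the shares below. Over 32851 such windows of the genome the full element was in 1.55%, the half-site in 17.8% and the CArG box in 1.47%. Counted by gene instead, as a match in any window of the gene, the shares among genes tested were 3.04%, 29.2% and 1.44%. A gene with several windows has more chances of a match, so shares by window and by gene are not alike. They were 4.40%, 30.8% and 3.30% in the 182 higher genes with a window and 2.30%, 25.3% and 2.87% in the 174 lower ones. These are matches of letters and not tests.

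**Figure D4:**
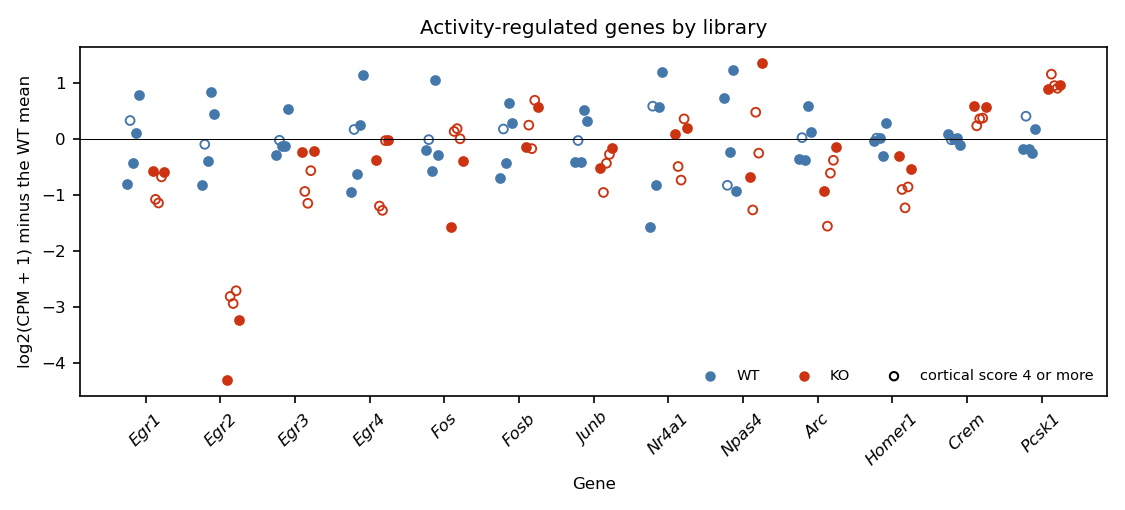
log2(CPM + 1) of 13 activity-regulated genes minus the WT mean of each gene, by library (blue WT, red KO; open circles, cortical score of 4 or more). Egr2 is low in all 5 KO libraries and Crem and Pcsk1 are higher than in every WT library, while Fos, Nr4a1 and Npas4 spread over the same range in both groups.

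The lists of the cAMP pathway, like all other lists here, are read against the 3.35% called over all genes (1.59% higher, 1.75% lower). Of 9 PKA subunit and inhibitor genes 1 passed: Pkig, a PKA inhibitor, at -0.29 ± 0.07 on the log2 scale (edgeR's quasi-likelihood test, adjusted p = 0.0465, with loss of the call in 7 of 10 fits that left out WT 914, 92 or 142 or KO 932, 51, 161 or 163). The catalytic genes Prkaca and Prkacb stood at 0.11 ± 0.09 and 0.06 ± 0.14, and the regulatory genes Prkar1a and Prkar2b at -0.02 ± 0.13 and -0.20 ± 0.11. None of 8 genes for AKAP11 partners passed, among them Gsk3a (-0.10 ± 0.10) and Gsk3b (-0.23 ± 0.12), and no phosphodiesterase of 18. Of 18 other anchoring proteins, Akap5, which holds PKA at the postsynaptic density, was lower (-0.55 ± 0.12, but -0.30 and not past the test without the 4 cortex-high libraries, and adjusted p = 0.0574 without WT 914). Akap3 was higher at 0.0584 to 0.573 CPM in the 10 libraries, a low level, and its call was lost without WT 914, 42 or 142 or KO 163.

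Sphkap, an anchoring protein for type I PKA, was higher. It stood at 27.8, 45.3, 26.8, 28.5 and 24.1 CPM in WT and at 35.8, 115, 109, 51.3 and 36.8 CPM in KO. The 3 cortex-high KO libraries and WT 92 were the 4 highest of all. The log2 fold change was 1.19 ± 0.30, mixing alone would give 0.81, and with the covariate it was 0.62; the call was lost without WT 913, 914, 42 or 142 or KO 51 or 161 (largest adjusted p = 0.112 by edgeR's quasi-likelihood test). The cortex-low KO libraries had a mean of 36.3 CPM against 26.8 CPM in the cortex-low WT libraries.

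Adcy1, the calcium-stimulated adenylyl cyclase, was the only cyclase of 9 to pass. It stood at 257, 402, 277, 224 and 304 CPM in WT and at 529, 542, 591, 485 and 410 CPM in KO. No KO library was below the highest WT library, WT 92, and the log2 fold change of 0.80 ± 0.14 (edgeR's quasi-likelihood test, adjusted p = 0.00541) was 0.82 without the 4 cortex-high libraries and 0.63 at 12 weeks. Adcy5, the main cyclase of the striatum, stood at -0.51 ± 0.24 and, without the 4 libraries, at 0.02.

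Of 27 heterotrimeric G protein subunit genes 2 rose and none fell. Gng4, a gamma subunit (chr13:13784059-13827896, plus strand), stood at 15.8, 18.6, 13.9, 16.9 and 9.89 CPM in WT and at 34.1, 44.5, 47.7, 35.9 and 35.2 CPM in KO. The 5 KO libraries were all above WT, with a log2 fold change of 1.39 ± 0.14 (edgeR's quasi-likelihood test, adjusted p = 2.52e-05) against 0.26 from mixing alone and 1.26 with the covariate. Gnb4, a beta subunit, rose from 63.2 ± 12.0 to 107 ± 14.5 CPM, where mixing alone would give a log2 change of -0.10, and its change was 1.28 at 12 weeks. Without the 4 cortex-high libraries it was 0.62 (edgeR's quasi-likelihood test, adjusted p = 0.0645). The striatal partners of the D1 and adenosine receptors, Gnal and Gng7, stood at -0.19 ± 0.21 and -0.28 ± 0.21. Of 17 regulators of G protein signalling Rgs6 was higher (0.62 ± 0.13, mixing alone 0.42), at 0.32 and not past the test without the 4 libraries.

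None of the 22 pan striatal genes, which define projection neurons of both pathways, passed. All 22 were below 0 on the log2 scale in the comparison of all libraries, with a median of -0.32 where mixing alone would give -0.23, and the median was -0.16 with the covariate and 0.16 without the 4 libraries. Ppp1r1b, which encodes the PKA-regulated phosphatase inhibitor DARPP-32, stood at -0.23 ± 0.27, and Pde10a, the striatal phosphodiesterase, at -0.43 ± 0.28. Drd1 stood at -0.32 ± 0.22, Drd2 at -0.28 ± 0.24, Adora2a at -0.34 ± 0.24 and Penk at -0.18 ± 0.23, and without the 4 libraries at 0.20, 0.27, 0.20 and 0.34.

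Among the 12 direct-pathway genes Pdyn, Gnb4 and Ptprm passed, and among the 10 indirect-pathway genes Ptprm and Plxdc1. Pdyn, the precursor of dynorphin, stood at 62.4, 64.4, 76.1, 103 and 87.0 CPM in WT and at 166, 118, 120, 113 and 135 CPM in KO. The 2 cortex-low KO libraries were the 2 highest, and mixing alone would lower it by 0.14. The log2 fold change was 0.73 ± 0.16 (edgeR's quasi-likelihood test, adjusted p = 0.0177, and 0.0509 without WT 42), 0.82 with the covariate and 1.03 at 12 weeks. Tac1, the substance P precursor of the same neurons, stood at 0.30 ± 0.20. Ptprm, a receptor tyrosine phosphatase, fell from 52.2 ± 2.72 to 41.4 ± 2.72 CPM, and Plxdc1 from 32.2 ± 4.33 to 22.3 ± 2.62 CPM, the call of Plxdc1 being lost with the covariate (edgeR's quasi-likelihood test, adjusted p = 0.0502) and without WT 42 or 142 or KO 932, 161 or 163.

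For neuropeptide genes the median log2 change over the 15 tested was 1.31 with all libraries, 0.30 with the covariate and 0.11 without the 4 libraries. Cartpt stood at 0.200, 0.440, 0.275, 0.339 and 0.146 CPM in WT and at 0.524, 4.28, 2.34, 0.896 and 0.997 CPM in KO. All KO libraries were above WT, but KO 51 and KO 161 were far above the rest, and the call was lost with the covariate (edgeR's quasi-likelihood test, adjusted p = 0.0574) and without WT 914, 42 or 142 or KO 51. Of 15 interneuron genes none passed, at a median of 0.30 over all libraries, 0.30 with the covariate and -0.07 at 12 weeks. Chat, the acetylcholine-synthesising enzyme, stood at 0.07 ± 0.20 and Sst at 0.41 ± 0.15. Without the 4 libraries the median was 0.35 and 4 genes passed, all of cholinergic neurons: Chat at 0.50, Slc5a7 at 0.64, Slc18a3 at 0.40 and Lhx8 at 0.57. At 12 weeks these 4 stood between -0.18 and -0.01.

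Receptor genes changed one by one. Of 26 monoamine and acetylcholine receptor genes Chrm2 and Chrm5 were higher and Htr4 and Htr6 lower, beside 3.35% of all genes called. Chrm2, the Gi-coupled muscarinic autoreceptor, rose from 9.22 ± 0.64 to 13.8 ± 1.61 CPM, and Htr6, like Htr4 a Gs-coupled serotonin receptor, fell from 9.64 ± 1.37 to 6.31 ± 0.885 CPM (call lost without WT 914, 42 or 142). At 12 weeks Chrm2 stood at 7.92 to 11.45 CPM in WT and at 8.41 to 9.89 CPM in KO. Chrm5 rose from 0.432 ± 0.143 to 1.13 ± 0.289 CPM, with the call lost under the covariate (edgeR's quasi-likelihood test, adjusted p = 0.0617) and without WT 914, 42 or 142 or KO 51, but with a change of 1.96 at 12 weeks that passed. None of 13 opioid, cannabinoid and adenosine receptor genes and none of 14 NMDA and metabotropic glutamate receptor genes passed.

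Of 23 AMPA and kainate receptor genes, the AMPA auxiliary subunit Cacng7 was higher and its relative Cacng8 and the kainate subunit Grik2 were lower. Cacng7 stood at 69.5, 98.4, 78.8, 78.1 and 92.1 CPM in WT and at 141, 133, 122, 128 and 108 CPM in KO, without overlap, a log2 change of 0.60 ± 0.09 (edgeR's quasi-likelihood test, adjusted p = 0.00135), and 0.55 with the covariate. Cacng8 changed by -0.29 ± 0.07 and Grik2 by -0.57 ± 0.12, and neither passed without the 4 cortex-high libraries. Gabra5, a subunit of the ionotropic GABA receptor, was higher. Gabra5 stood at 26.2, 26.7, 23.8, 24.9 and 15.9 CPM in WT and at 34.9, 57.7, 55.4, 38.6 and 35.2 CPM in KO, with KO 51 and KO 161 on top. It rose by 0.91 ± 0.18 over all libraries and by 0.73 with the covariate, and by 0.98 at 12 weeks, but did not pass without the 4 libraries. The call of Cacng8 was lost without WT 914 or 92 or KO 932, 161 or 163.

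At the synapse, 3 of 35 vesicle and release genes rose and 1 fell, beside 3.35% of all genes called. Syt5, a calcium sensor of vesicle release, stood at 102, 148, 105, 115 and 127 CPM in WT and at 198, 162, 190, 155 and 159 CPM in KO. KO 12 was the highest and all KO libraries lay above WT, with a log2 change of 0.53 ± 0.10 (edgeR's quasi-likelihood test, adjusted p = 0.00792) and 0.55 at 12 weeks. Unc13c, a vesicle priming factor, fell from 151 ± 29.4 to 70.2 ± 17.7 CPM. At 12 weeks it stood at 177 to 238 CPM in WT and at 139 to 173 CPM in KO. No gene of this list passed as lower there. Vamp1, a vesicle SNARE, rose by 0.74 ± 0.16 where mixing alone would give 0.57, and the cortex-low KO libraries had a mean of 36.6 CPM against 26.2 CPM in cortex-low WT libraries. Rab3b rose by 0.64 ± 0.16, with the call lost in 7 of 10 fits that left out WT 913, 914, 42 or 142 or KO 51, 161 or 163. Of 28 postsynaptic scaffold genes Shank3 and Homer1 were lower, Shank3 at -0.64 ± 0.16 with the call lost under the covariate and in 8 of 10 fits that left out a library, all but WT 913 and KO 12 (largest adjusted p = 0.111 by edgeR's quasi-likelihood test).

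Potassium channel genes numbered 55, of which 4 were higher and 1 lower. Kcnh3, a slow voltage-gated channel of forebrain neurons, stood at 156, 182, 164, 154 and 221 CPM in WT and at 117, 118, 97.0, 117 and 107 CPM in KO. Every KO library was below WT and mixing alone would raise it by 0.06; the log2 change was -0.66 ± 0.09 (edgeR's quasi-likelihood test, adjusted p = 0.00096), -0.66 with the covariate and -0.59 at 12 weeks. Of the higher genes Kcns3 passed with the covariate but not without the 4 libraries, while Kcnip4, Kcna3 and Kcnh7 did not (edgeR's quasi-likelihood test, adjusted p = 0.0519, 0.0743 and 0.0631). The calls of Kcnip4 and Kcna3 were each lost in 6 of 10 fits that left out a library, WT 914, 42 or 142 or KO 51 or 161 for both, WT 913 also for Kcnip4 and WT 92 also for Kcna3. The calcium channel genes Cacna1c and Cacnb1 had log2 changes of -0.45 ± 0.10 and -0.46 ± 0.11 and did not pass without the 4 libraries, nor when WT 914 or KO 51, 161 or 163 was left out (for Cacna1c also WT 42 or 142).

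Of 25 calcium, calmodulin and phosphatase genes 3 fell and none rose, beside 3.35% of all genes called. Ppp1r1a, the PKA-regulated inhibitor 1 of protein phosphatase 1, stood at 75.5, 93.7, 78.3, 74.0 and 100 CPM in WT and at 61.4, 57.8, 51.8, 56.3 and 58.6 CPM in KO. The groups were apart, with a log2 change of -0.56 ± 0.08 (edgeR's quasi-likelihood test, adjusted p = 0.00113), -0.56 with the covariate and -0.45 without the 4 libraries. The kinase genes Camkk2 and Camkk1, which act upstream of CaMKI and CaMKIV, fell by 0.55 ± 0.13 and 0.31 ± 0.08, and neither passed without the 4 libraries, nor when WT 914 or 42 or KO 51, 161 or 163 was left out (for Camkk1 also WT 142). At 12 weeks Camkk2 changed by -0.70 and passed. The list's median was -0.20 over all libraries and 0.15 without the 4.

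In the TGF-beta and BMP list of 34 genes, 4 fell and 1 rose, beside 3.35% of all genes called. The list's median was -0.08. Inhba, the activin subunit, stood at 8.93, 5.62, 9.73, 7.21 and 7.21 CPM in WT and at 3.41, 2.08, 2.86, 2.91 and 3.99 CPM in KO. No KO library reached WT, and the log2 change of -1.34 ± 0.18 (edgeR's quasi-likelihood test, adjusted p = 0.000607) was -1.16 without the 4 cortex-high libraries and -1.44 at 12 weeks. Acvr1c, which encodes the activin and nodal receptor ALK7, stood at 114, 75.9, 104, 83.2 and 101 CPM in WT and at 73.7, 27.0, 23.2, 36.6 and 62.9 CPM in KO. The 3 cortex-high KO libraries were the lowest. The log2 change was -1.10 ± 0.26, against -0.20 from mixing alone. It was -0.56 without the 4 libraries (edgeR's quasi-likelihood test, adjusted p = 0.055) and -1.25 at 12 weeks, where it passed. The call was also lost without WT 914, 42 or 142 or KO 51, 161 or 163.

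Pmepa1, a TGF-beta target that restrains the pathway, fell from 146 ± 27.5 to 90 ± 15.2 CPM, and Bmp6, a ligand, from 6.20 ± 1.15 to 3.54 ± 0.879 CPM, where exons of Txndc5 overlap it on the other strand. Neither passed without the 4 libraries. Smad9, a receptor-regulated SMAD of the BMP branch, was higher by 0.51 ± 0.12 and did not pass with the covariate; it is given to complete the count, after its value was seen. The receptors Tgfbr1, Tgfbr2, Bmpr1a and Bmpr2 stood between -0.16 and -0.02 and did not pass.

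Among fibroblast growth factors and receptors (17 tested) Fgf17 fell together with Fgf3, at levels of 0.062 to 0.702 CPM in the 10 libraries, and Fgf12, an intracellular family member, was higher by 0.42 ± 0.11 with the call lost under the covariate and without WT 913, 914, 42 or 142 or KO 51 or 161. Of 32 Wnt and beta-catenin genes Tcf7 fell (-0.73 ± 0.16; call lost without WT 914, 42 or 142 or KO 51) and of 60 axon guidance genes Sema3f (-0.60 ± 0.11). Fgf17, Tcf7 and Sema3f did not pass without the 4 libraries. In the collagen and matrix list of 39 genes 3 were higher and 2 lower, beside 3.35% of all genes called. The list's median was -0.13, and -0.36 with the covariate and -0.55 without the 4 libraries. The count without the 4 libraries was 2 higher and 7 lower. The lower ones over all libraries were Col1a1 (-0.59 ± 0.15, lost with the covariate and without the 4 libraries) and Col11a2 (-0.64 ± 0.15, lost without WT 913, 914, 42 or 142 or KO 932, 51 or 161), and Col19a1 was among the higher (0.68 ± 0.15, lost with the covariate and without WT 914, 42 or 142 or KO 51 or 161). Has3, a hyaluronan synthase, was higher: 6.53, 7.22, 7.27, 9.22 and 9.46 CPM in WT and 15.6, 12.9, 8.78, 15.4 and 17.2 CPM in KO. KO 161, with the most cortical RNA, was the only KO library within the WT range, and the log2 change of 0.82 ± 0.16 (edgeR's quasi-likelihood test, adjusted p = 0.0114) was 0.92 with the covariate, 1.02 without the 4 libraries and 1.74 at 12 weeks. Col25a1, a transmembrane collagen of neurons, also rose, by 0.54 ± 0.08.

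**Figure D5:**
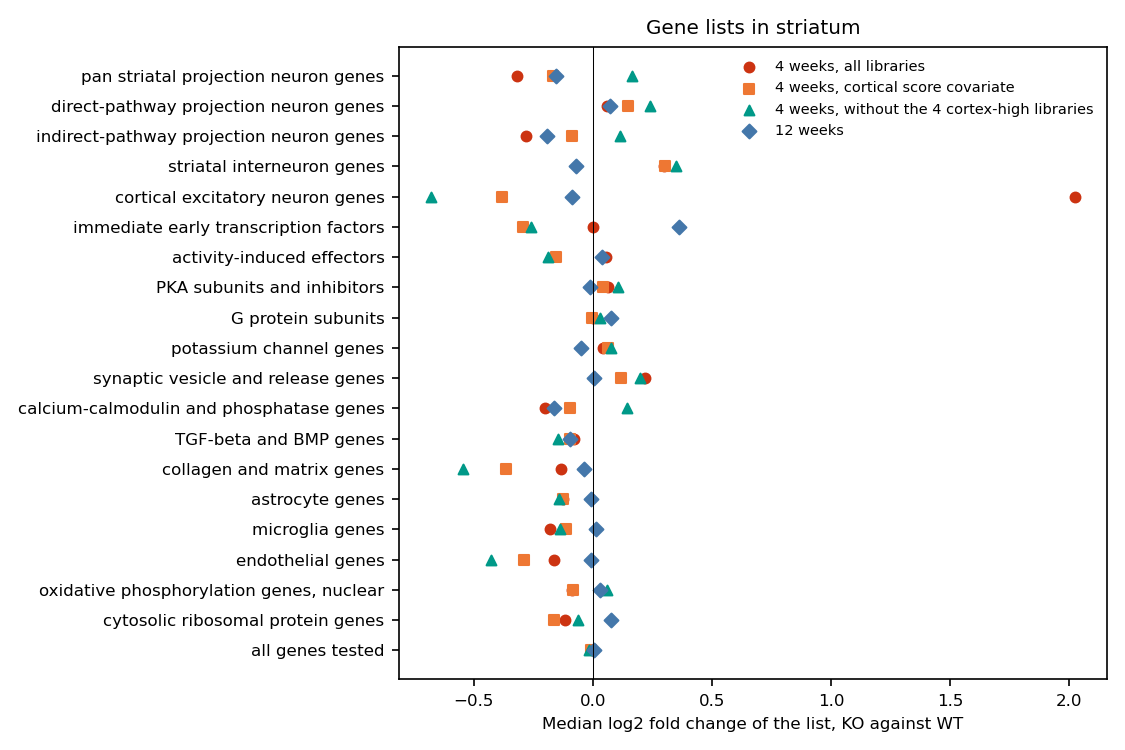
Median log2 fold change (KO against WT) of 19 gene lists and of all genes tested under 4 estimates: all 4-week libraries, the cortical score as covariate, without the 4 cortex-high libraries, and 12 weeks. The cortical list goes from 2.02 to -0.38 with the covariate and the pan striatal list from -0.32 to 0.16 without the 4 libraries, while the PKA list has medians of 0.06, 0.05, 0.10 and -0.01.

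Of the glial and vascular lists 1 of 15 astrocyte, 2 of 15 microglia and 1 of 11 mural genes were called, beside 3.35% of all genes. Aqp4, the water channel of astrocyte endfeet, stood at 77.7, 75.2, 82.1, 68.0 and 79.8 CPM in WT and at 49.6, 49.6, 41.5, 70.6 and 45 CPM in KO. KO 163 lay within WT and the other 4 below it, a log2 change of -0.58 ± 0.12 (edgeR's quasi-likelihood test, adjusted p = 0.0139); the other 14 astrocyte genes did not pass, and at 12 weeks the change was -0.12. The complement genes C1qa and C1qb of microglia were lower by -0.35 ± 0.09 and -0.30 ± 0.07, but not past the test with the covariate or at 12 weeks, and their calls were lost in 7 and 6 of 10 fits that left out a library (WT 914, 42 or 142 or KO 51, 161 or 163, and for C1qa also WT 92). None of 12 endothelial, 15 myelin and 10 oligodendrocyte precursor genes passed. All 12 endothelial genes were below 0 (median -0.16, -0.29 with the covariate, -0.43 without the 4 libraries and -0.01 at 12 weeks), as were all 15 microglia genes (median -0.18, -0.11, -0.14 and 0.01).

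Of 10 meningeal and fibroblast genes Igf2 and Col1a1 were lower, and the list summed to 85.2 to 102 CPM in WT and 67.2 to 80.9 CPM in KO. Igf2, a growth factor of meninges and choroid plexus, stood at 27.9, 33.0, 36.7, 31.6 and 30.4 CPM in WT and at 18.5, 23.6, 17.1, 22.2 and 17.4 CPM in KO, a log2 change of -0.69 ± 0.11 (edgeR's quasi-likelihood test, adjusted p = 0.00179). Cortical RNA would raise it by 0.24. The call of Col1a1 was lost in 9 of 10 fits that left out a library, all but WT 92. Whether the pieces differed in how much meninges they held was not tested; at 12 weeks Igf2 stood at -0.27 and did not pass.

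The lists of basic cell functions did not hold calls beyond single genes. None of 72 nuclear oxidative phosphorylation genes, 13 mitochondrially encoded genes, 77 ribosomal protein genes, 31 proteasome genes, 32 autophagy genes and 21 unfolded protein response genes passed edgeR's quasi-likelihood test, with medians of -0.09, -0.38, -0.12, -0.01, -0.05 and -0.05. Mitochondrial transcripts took 2.70% to 5.90% of the counts in the 10 libraries. Of 20 interferon-response genes Ifi27l2a was lower, from 0.526 ± 0.183 to 0.108 ± 0.0409 CPM. Of 24 heat shock genes Hspa1a, an inducible chaperone, was higher (0.98 ± 0.17, not past the test without the 4 libraries). Of 16 ERK feedback genes Spred3 was higher (0.53 ± 0.09), and of 23 fatty acid and lipid genes the acyl-CoA synthetases Acsl4 (0.37 ± 0.08) and Acsl5 (0.50 ± 0.11, lost without WT 42 or 142). Gla, a lysosomal galactosidase, was the only call of 37 lysosome genes (0.44 ± 0.10), and it was lost with the covariate and without WT 914, 42 or 142 or KO 932, 51, 161 or 163.

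The last group holds rises that did not outlast the cortical covariate. Mybpc1, Ptger3 and Kcnh7 were the largest of these cortex-enriched genes beside Cartpt. Kcnh7, a potassium channel, stood at 17.3, 28.2, 14.9, 17.3 and 10.5 CPM in WT and at 22.9, 63.6, 69.1, 36.9 and 20.4 CPM in KO. The cortex-low KO libraries lay above every cortex-low WT library and below the cortex-high WT 92. The log2 change was 1.27 ± 0.32, against 0.83 from mixing alone, and 0.00 at 12 weeks. Ptger3, a prostaglandin E receptor, changed by 1.42 ± 0.32, and by 0.18 at 12 weeks. The calls were lost in 7 of 10 fits that left out a library for Kcnh7 (WT 913, 914, 42 or 142 or KO 51, 161 or 163), 6 for Mybpc1 (WT 913, 42, 92 or 142 or KO 51 or 161) and 4 for Ptger3 (WT 914 or 142 or KO 51 or 161). Emx1, Tbr1 and Neurod6 themselves had log2 fold changes of 2.62 ± 1.25, 2.22 ± 1.48 and 2.10 ± 1.48 and did not pass; with the covariate they stood at -0.06, -0.94 and -1.37.

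The 12-week striatum (5 KO, 5 WT and 5 HET libraries) gave the same comparison in older mice. There 691 of 15622 genes passed (4.42%), 285 higher (1.82%) and 406 lower (2.60%), a count that was 428 without KO 5 and 248 with the cortical score as a covariate. That score was 2.46 to 2.80 in KO and 2.62 to 2.90 in WT, so it went with genotype in part. Of its 7 genes 2 were themselves called lower in KO. The fall to 248 calls therefore does not measure cortical RNA alone. Of the 246 genes higher at 4 weeks, 220 of 238 tested had the same sign at 12 weeks (92.4%) and 87 passed; of the 270 lower, 261 of 269 had the same sign (97.0%) and 134 passed. Of the 221 genes called at both ages in 1 direction, 190 were among the 375 kept with the covariate at 4 weeks. A test of the difference between the ages called none of 15990 genes, with 1090 at an unadjusted p under 0.05. Single genes stood apart in size: the fall of Htr4 was -2.90 at 4 weeks and -1.40 at 12 weeks, and the rise of Has3 was 0.82 and 1.74, differences that did not pass.

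In HET striatum, which shares the WT libraries with the comparison above, 1 of 15425 genes passed (0.00648%), Akap11 itself (-0.96 ± 0.07), with 292 genes at an unadjusted p under 0.05. Egr2 stood at 31.8 to 72.5 CPM in the 5 HET libraries, Htr4 at 2.80 to 6.69, Nrip3 at 24.5 to 32.1 and Epha10 at 16.5 to 22.5, all within or above the WT range except for the lowest Htr4 value. In the other 5 regions at 4 weeks the KO comparison called 2 of 15970 genes in prefrontal cortex (0.0125%), 9 of 15945 in somatosensory cortex (0.0564%), 1 of 16429 in hippocampus (0.00609%), 2 of 15654 in thalamus (0.0128%) and 1 of 16218 in substantia nigra (0.00617%). Nrip3 stood between -0.31 and 0.22 on the log2 scale in those regions, Gng4 between -0.37 and 0.29 and Epha10 between -0.26 and 0.22, and none of them passed there. Some of the other genes were further from 0 in 1 region without passing: Egr2 stood at -2.10 in somatosensory cortex, Htr4 at -3.00 in thalamus and Lancl3 at -3.47 in thalamus (edgeR's quasi-likelihood test, adjusted p = 0.309, 0.285 and 0.0721). The difference between regions was not tested.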

How the data were processed

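Total RNA of frozen striatum was made into stranded mRNA libraries, per the labels' protocols. The deposited table holds estimated counts per gene symbol, which the authors obtained with Salmon against mm10, per the submitters' processing notes; the sources give neither the annotation nor the strand setting. The expected counts, which need not be whole, were rounded. In R 4.3.3, the 15 libraries of 4-week striatum (5 each of WT, HET and KO; 30589285 to 71225358 counts in the 10 compared) were filtered with filterByExpr, scaled with TMM and fitted with edgeR 4.0.16 (glmQLFit, glmQLFTest), with genotype as the only term. A gene was called at a Benjamini-Hochberg adjusted p under 0.05 over all genes tested. The 12-week striatum and the other 5 regions were fitted in the same way, each alone. The script was tested on simulated counts.

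The cortical score is the mean log2(CPM + 1) of the listed cortical genes that passed the filter. These were 14 of 15 at 4 weeks and 7 at 12 weeks. The share is the median over all 15 of the excess over cortex-low libraries, relative to cortical libraries of the same age. The term "mixing alone" stands for the difference between group means of log2(CPM + 0.5) that these shares would give. The fitted change compares group means of counts, so the 2 scales differ and mixing can come out smaller. Cortex-enriched genes were at least 2-fold higher in 12-week WT cortex than striatum (pseudocount 0.5 CPM), and striatum-enriched genes the reverse.

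Named genes were Akap11, the 8 largest rises and 8 largest falls called with and without the covariate, with a mean log2 CPM of 1 or more and no overlap between groups, up to 4 called members of each list by smallest adjusted p, 3 cortical genes, and the 4 largest cortex-enriched rises lost with the covariate. Gene models named Gm or Rik were passed over (4 rises, 1 fall). Of the genes this rule names, 4 are not reported here. Uncalled list members were added as examples after their values were seen. Members, lists and rules were chosen with earlier results of these data known. Of the 89 named genes 23 have exons that overlap another gene in GENCODE M21 and are less certain: Epha10, Lancl3, Tagln, Crem, Baz1a, Spred3, Rgs6, Ptprm, Igf2, Cacng8, Gabra5, Chrm2, Shank3, Rab3b, Kcnip4, Cacnb1, Bmp6, Acvr1c, Has3, Hspa1a, Acsl5, Mybpc1 and Kcnh7. Alternatives were other scaling, no filter, DESeq2 1.42.0, WT and KO libraries only, cortical covariates, a surrogate variable (sva 3.50.0), sample weights (limma 3.58.1), a term for the 3 libraries with few whole-number values and each library left out.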

Additional observations from a re-analysis of the deposited data

Results flagged for a closer look

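In 10 of 178 groups of 5 libraries (5.62%, 89 genes in WT and in KO), 1 library stood apart from the other 4 by Dixon's ratio at the 95% level, which chance gives in about 1 in 20 groups. WT 92, the WT library with cortical RNA, was the high one in 5 of them. There Emx1 stood at 2.00 CPM (others 0.0275 to 0.315), Neurod6 at 18.8 CPM (0.0551 to 1.06) and Sphkap at 45.3 CPM (24.1 to 28.5). Vamp1 stood at 38.4 CPM in WT 92 (25.5 to 27.2) and Acsl5 at 30.8 CPM (24.9 to 26.4). WT 914 was low in Gabra5, at 15.9 CPM (23.8 to 26.7), and in Trpc4, at 3.04 CPM (4.45 to 4.70). Lor was high in WT 913, at 2.78 CPM (1.74 to 2.00), and Lancl3 was low in WT 42, at 1.83 CPM (2.08 to 2.13). Akap11 in KO 161, the library with the highest cortical share, stood at 15.7 CPM, against 19.7 to 19.9 CPM in the other KO libraries.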

How the results depend on the processing

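Against 516 calls at 4 weeks (246 higher, 270 lower), DESeq2 gave 971 (493 and 478), WT and KO libraries only 174 (80 and 94), and limma-voom with sample quality weights 1162 (598 and 564). Leaving out a library gave 263 to 1141 calls (114 to 572 higher, 149 to 569 lower). The other alternatives gave 412 to 653, and the median log2 change of all genes lay between -0.0173 and 0.0096 under every alternative. At 12 weeks, 691 calls became 248 with the cortical score as covariate (100 higher, 148 lower). That score went with genotype in part at 12 weeks. DESeq2 gave 613 lower genes, and leaving out a library gave 428 to 891 calls (176 to 373 higher, 252 to 518 lower). With the replicate number as a block 992 genes were called, 441 of them higher. Same-numbered KO and WT samples correlated at -0.0551 to 0.477. WT samples 2, 4 and 5 correlated best with the KO sample of their own number, and WT samples 1 and 3 did not. The numbers were not taken as pairs, and whether same-numbered samples were handled together was not tested. At 4 weeks no paired analysis was possible because the groups share no replicate numbers. The cortex-enriched share of higher genes was 6.10% under a 4-fold rule (2.73% of all genes tested), 37.0% under the 2-fold rule (8.93%) and 43.1% with the 2-fold rule in 4-week libraries (8.82%). The causes were not tested. No called gene among those named by rule changed sign under these alternatives at 4 weeks. The uncalled Emx1, Tbr1 and Neurod6 turned negative with the cortical score as covariate (-0.06, -0.94 and -1.37) and without the 4 libraries (-0.63, -2.21 and -4.48), and Tbr1 and Neurod6 with the share as covariate.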

Other observations

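Several genes outside the naming rule were called at 4 weeks, with the covariate, without the cortex-high libraries and at 12 weeks; they were chosen after their values were seen. Car12, a carbonic anhydrase, stood at 64.3, 48.5, 57.3, 49.8 and 52.5 CPM in WT and at 17.7, 21.4, 17.3, 17.3 and 17.6 CPM in KO. Tns1, which encodes the focal adhesion protein tensin 1, stood at 76.0, 75.7, 77.6, 79.3 and 93.0 CPM in WT and at 34.7, 39.9, 35.3, 45.2 and 33.3 CPM in KO. In both genes every KO library was below every WT library, whatever its cortical share. The log2 fold changes were -1.58 ± 0.09 for Car12 and -1.09 ± 0.09 for Tns1 (edgeR's quasi-likelihood test, adjusted p = 1.58e-07 and 5.7e-06). Grpr, the receptor of gastrin-releasing peptide, was low in WT, at 0.342, 0.220, 0.248, 0.435 and 0.117 CPM, and stood at 2.79, 2.17, 1.04, 1.94 and 2.38 CPM in KO. Its log2 fold change was 2.91 ± 0.43, and 4.19 at 12 weeks.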
